A study of Mus musculus with 4 samples.

Results

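The genes described here are 10 members of the BCL2 family, taken by symbol from a table of counts per gene. Bcl2, Bcl2l1 and Mcl1 promote survival, Bcl2l11, Bbc3, Pmaip1, Bmf and Bid are BH3-only genes, and Bax and Bak1 are effectors. They are 10 of the 35275 genes listed. Measured genes were those with 2 CPM (counts scaled to the library total) or more in any library; 12490 genes met this, 9 of the 10 members among them, and Bak1 did not.

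The libraries came from untreated C57BL/6 mice aged 6 to 8 weeks, whose thymocytes were sorted by flow cytometry into group 2 (TCRβint CD69hi) and group 3 (TCRβhi CD69hi), consecutive steps of selection. The groups were, in order, Uba3ΔT group 2, Uba3F/F group 2, Uba3ΔT group 3 and Uba3F/F group 3, with 1 library each. Uba3 is part of the enzyme that loads NEDD8, a small ubiquitin-like protein, for transfer to the cullin ubiquitin ligases. Uba3ΔT mice, whose genotype is also given as Uba3-/-, are called KO here and Uba3F/F mice, given as wild type, are called WT. The Cre line behind the deletion and the number of mice in a library are not given in the sources used here. The field for cell type puts both WT libraries in group 2 and both KO libraries in group 3, which goes against the titles and the study's design; the titles were used.

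The proteins of this family meet at the outer membrane of the mitochondrion. BH3-only proteins are raised or activated by death signals, among them a strong signal from the T cell receptor, and they bind and block the pro-survival proteins or activate Bax and Bak directly, which then open the membrane, release cytochrome c and start the caspases. In the thymus, Bcl2l11 (Bim) and Bbc3 (Puma) take part in the deletion of self-reactive cells, Bcl2l1 (Bcl-xL) keeps double-positive thymocytes alive, Bcl2 serves the mature stages that follow positive selection, and Mcl1 is needed at many stages. These roles are background and not a result of the libraries described here.

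What the 10 members share in sequence is a short stretch of the BH3 domain, the helix by which one member binds the groove of another. The stretch was searched in the longest coding sequence of each gene in GENCODE M21. It began with a leucine, any pair of residues, a hydrophobic residue (isoleucine, methionine, valine or alanine) and glycine or alanine. Aspartate, any residue and a last hydrophobic residue (phenylalanine, leucine, methionine, valine or isoleucine) followed. The stretch was found in 10 of 10 members, against 403 of 21901 mouse proteins (1.84%), and in 1 of 16 other genes of the wider family, Bik. The letters were set to describe the BH3 core, so finding them in the members is no test. Strict letters can miss a BH3 domain, so the other genes without a match may still hold one. Capitals mark the codons of the leucine, of the glycine or alanine and of the aspartate. The lines show how the coding letters differ around these fixed codons in the 3 pro-survival genes, 4 BH3-only genes and 2 effectors.
Bcl2: CTCcgccgggctGGGGATgacttc
Bcl2l1: CTGagagaggcaGGCGATgagttt
Mcl1: CTGcggcgcgtgGGCGACggcgtg
Bcl2l11: CTGcggcggatcGGAGACgagttc
Bbc3: CTGcggcggatgGCGGACgacctc
Bmf: CTTcagtgtattGCAGACcagttc
Bid: CTCgcccaaataGGCGATgagatg
Bax: CTCcggcgaattGGAGATgaactg
Bak1: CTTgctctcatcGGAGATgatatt
Bbc3 and Bmf code for alanine where the other 7 code for glycine.

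RefSeq start-site windows of 300 bases, 250 before and 50 after the start, were at hand for 9 members (16 windows, build GRCm38.p6, the sequence of mm10). Pmaip1 had no window, so its letters were not searched. Both strands were searched for the letters of a forkhead site (GTAAACA, in 3.65% of all 32851 windows), AP-1 (TGANTCA, 7.81%), an E-box (CACGTG, 7.15%), a GC box (GGGCGG, 35.7%), a CRE (TGACGTCA, 1.79%), a C/EBP-ATF element (TGATGNAA, 3.97%) and an NR4A element (AAAGGTCA, 1.51%), and for the p53 half-site (8.36%) and the NF-kB site (8.46%). None of the spelled strings contains another. The forkhead letters stood in 1 of 3 windows of Bbc3 and in 1 of 2 windows of Bcl2l11, and the p53 half-site in 1 window each of Bax and Bmf. None of the 3 windows of Bbc3, a textbook p53 target, held the letters of the p53 half-site. The NF-kB letters stood in 1 window each of Bbc3, Bcl2l1 and Bmf, the E-box in 1 window each of Bax and Bbc3, and the GC box in 10 of the 16 windows; the AP-1, CRE, C/EBP-ATF and NR4A letters stood in none. The stretches around the forkhead matches are shown because Bbc3 and Bcl2l11 are the BH3-only genes that were higher in the library labelled KO, beyond counting error, within both sorted groups (values below), and those around the p53 half-sites because p53 is a known regulator of the family; capitals mark the match.
Bbc3, chr7:16310064-16310130, plus strand: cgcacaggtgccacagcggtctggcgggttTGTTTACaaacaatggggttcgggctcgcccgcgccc
Bcl2l11, chr2:128125788-128125847, plus strand: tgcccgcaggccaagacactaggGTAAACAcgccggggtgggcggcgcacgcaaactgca
Bax, chr7:45467060-45467129, minus strand: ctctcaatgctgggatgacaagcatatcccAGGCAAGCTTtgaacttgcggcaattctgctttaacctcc
Bmf, chr2:118544761-118544830, minus strand: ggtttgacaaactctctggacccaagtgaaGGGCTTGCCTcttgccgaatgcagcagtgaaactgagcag
The matches begin 167, 227, 201 and 213 bases before their start sites. No annotated exon overlaps the 4 stretches. Those of Bbc3 and Bmf lie within their own genes, upstream of an internal start, that of Bax lies in an intron of the readthrough gene Gm45808, and that of Bcl2l11 lies in no annotated gene. The single window of Bcl2 held 7 GC boxes and none of the other letters. A match is a description of letters and was not tied to binding.

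The tables held between 8043077 and 10299863 counts per library. Uba3, the targeted gene, did not match the labels: it had 647 and 856 counts in the libraries labelled KO (groups 2 and 3), against 453 and 356 in the WT libraries, and its fitted log2 difference was 0.90 (SE 0.17; edgeR quasi-likelihood test, adjusted p = 2.65e-05). These counts pool deleted and kept exons, so they do not locate the deletion, and each genotype direction given here belongs to libraries labelled KO. The 9 genes of T cell identity were well counted in each library, with 14622 to 16975 summed CPM. Of 5 genes of immature thymocytes, 4 were lower in the libraries labelled KO by edgeR and by DESeq2 (Rag1, Rag2, Ptcra and Arpp21), where edgeR called 1.87% of all measured genes lower. Of 6 genes of mature thymocytes, edgeR called 5 higher in group 3 than in group 2 (Ccr7, Il7r, Klf2, Cd52 and S1pr1), against 2.21% of all measured genes, and DESeq2 called 3 of them (Ccr7, Il7r and Klf2). For the same step edgeR called lower 1 of the 5 immature genes (Dntt) and 1 of the 9 T cell identity genes (Cd8b1), against 1.14% of all measured genes. DESeq2 called neither Dntt nor Cd8b1. The group 3 library labelled KO stood apart by neutrophil genes, with 41.2 summed CPM over 6 genes (1 at 0), against 0.981 to 1.33 in the other 3 libraries (1 to 3 at 0). The group 2 library labelled KO and the group 3 WT library detected more genes, 23925 and 23325, than the group 2 WT library (20440) and the group 3 library labelled KO (20521). In RNA from a sorted population, fewer cells of a type and less RNA per cell cannot be told apart.

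Per length, the pro-survival gene Mcl1 was the highest of the 10 members in each library and Bak1 the lowest. Levels of different genes are given as RPKM (counts scaled by gene length and by library total), since counts grow with length. Mcl1 stood at 318 and 389 RPKM in the libraries labelled KO (groups 2 and 3) and at 297 and 340 RPKM in WT. Bcl2l1 followed in each library at 164 to 185 RPKM. Bax (138 to 150 RPKM) and Bcl2l11 (87.0 to 143 RPKM) came next, and they changed places only in the group 2 library labelled KO, where Bcl2l11 was above Bax. Bid (54.4 to 70.1 RPKM), Bcl2 (34.7 to 57.5 RPKM) and Bbc3 (25.2 to 57.7 RPKM) shared the middle of the order without a fixed rank. Bmf (8.36 to 14.5 RPKM) and Pmaip1 (3.34 to 5.54 RPKM) were low, in the eighth and ninth place of each library. Mcl1 ranked above at least 96.8% of measured genes in each library and Pmaip1 above at most 33.6%.

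**Figure D1:**
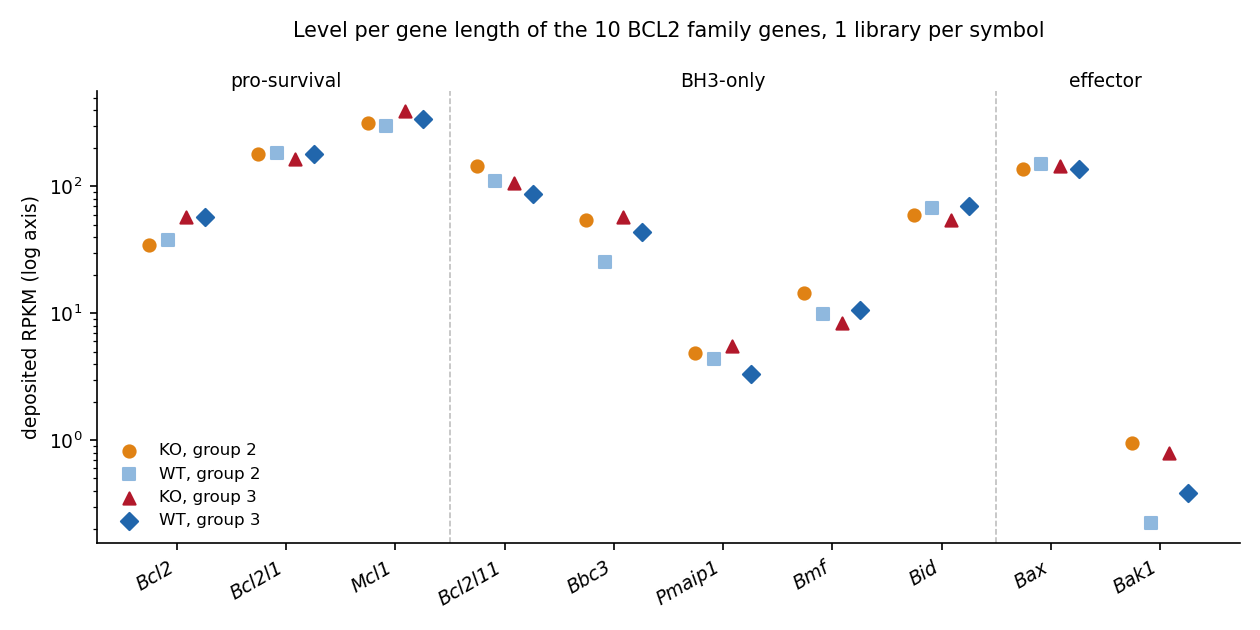
Deposited RPKM (log axis) of the 10 genes, grouped as pro-survival, BH3-only and effector; each symbol is 1 library, in the order KO then WT within group 2 and within group 3. Mcl1 is the highest and Bak1 the lowest in each library, and Bbc3 has 1 low symbol, the group 2 WT library at 25.2 RPKM.

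Bak1, one of the 2 effectors, was hardly counted: 11 and 10 counts in the libraries labelled KO (groups 2 and 3), against 3 and 4 in WT, or 0.943 and 0.793 RPKM against 0.224 and 0.382 RPKM. Its gene (ENSMUSG00000057789, chromosome 17, 27019810 to 27029009) overlaps exons of Ggnbp1 on the other strand by up to 437 bp. Because no strand setting is given in the sources used here, reads in that overlap cannot be assigned; Ggnbp1 itself had 3 to 8 counts. Bax, the other effector, had at least 138 RPKM in each library. The summed effector level was therefore almost wholly Bax, at 139 and 145 RPKM in the libraries labelled KO and 150 and 138 RPKM in WT. Exons of Bax overlap those of the readthrough gene Gm45808 on the same strand by 192 bp. Of the 50-base words of Bax, 8.51% occur there too. Gm45808 was not among the genes listed, so reads in that overlap cannot be assigned.

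The first comparison asks how the libraries labelled KO differ from WT. Of the 9 measured members, 1 rose by edgeR, the BH3-only gene Bbc3, and none fell (edgeR quasi-likelihood test on all 4 libraries, sorted group and genotype in the model, Benjamini-Hochberg over 12490 genes, threshold 0.05). DESeq2 called none of the 9 in either direction, with an adjusted p of 0.158 for Bbc3. In the edgeR fit 2.95% of all measured genes were called higher and 1.87% lower. The median log2 difference was 0.17 over the 9 members and 0.00141 over all measured genes. By edgeR, 2 of the 9 members had an unadjusted p under 0.05, against 1649 of all 12490 measured genes. The 2 were Bbc3 and Bcl2l11, both with higher values in the libraries labelled KO.

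Bbc3 encodes Puma, a BH3-only protein that binds all pro-survival members and is known as a target of p53 and of forkhead factors. The gene (ENSMUSG00000002083) lies on the plus strand of chromosome 7, 16308393 to 16318205. It had 512 counts (58.0 CPM) in the group 2 library labelled KO, against 275 counts (26.2 CPM) in WT. In group 3 it had 593 counts (62.3 CPM) in the library labelled KO, against 374 counts (45.9 CPM) in WT. Both libraries labelled KO were above both WT libraries, and the lowest of the 4 was the group 2 WT library. The ratio was 2.21 in group 2 (95% interval 1.91 to 2.57, exact conditional binomial, counting error only) and 1.36 in group 3 (1.19 to 1.55).

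The fitted log2 difference of Bbc3 was 0.79 (SE 0.19, adjusted p = 0.00147 by edgeR's quasi-likelihood test, higher in 2 of 2 pairs). DESeq2 gave the same size (0.79) but an adjusted p of 0.158, so the call rests on the choice of test. The difference was 0.39 without the group 2 WT library, and 0.79 and 0.69 without the group 2 and the group 3 library labelled KO. The call was lost in each of these fits and kept without the group 3 WT library (1.20). Fits with a library left out held 1 factor on unbalanced groups and called fewer genes among all those measured. A lost call there does not single out a library. Among 25 measured genes within 1000000 bp of Bbc3, none was called higher and 1 (Slc1a5, named after its values were seen) lower. The macrophage and dendritic cell genes were also higher in the libraries labelled KO: over 7 genes they summed to 72.3 and 89.7 CPM in the libraries labelled KO (groups 2 and 3), against 51.0 and 54.9 CPM in WT, with none at 0 in any library, and 1 of 6 measured genes, C1qb, rose (log2 1.12, SE 0.34, edgeR adjusted p = 0.0252; not called by DESeq2). Their part in the result was not tested.

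The other 4 BH3-only genes did not pass the test. Bcl2l11 encodes Bim, the main BH3-only protein of negative selection, and lies on the plus strand of chromosome 2, 128126038 to 128162547. It had 2736 counts (309.9 CPM) and 2191 counts (230.1 CPM) in the libraries labelled KO (groups 2 and 3), against 2437 counts (232.2 CPM) and 1488 counts (182.5 CPM) in WT. The library labelled KO was higher within each sorted group, with ratios of 1.33 (1.26 to 1.41) and 1.26 (1.18 to 1.35), but across sorted groups the values overlapped, since the group 3 library labelled KO was level with the group 2 WT library. The fitted log2 difference was 0.38 (SE 0.15, edgeR adjusted p = 0.142).

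Pmaip1 encodes Noxa, which binds Mcl1 and promotes its loss, and lies on chromosome 18, 66458533 to 66465565. It had 115 and 142 counts (13.0 and 14.9 CPM) in the libraries labelled KO (groups 2 and 3), against 118 and 71 counts (11.2 and 8.71 CPM) in WT. The group 3 WT library was the low one. The ratio was 1.16 in group 2 (0.888 to 1.51) and 1.71 in group 3 (1.28 to 2.31), and the fitted log2 difference was 0.49 (SE 0.29, edgeR adjusted p = 0.507).

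Bmf, a BH3-only protein released from the cytoskeleton under stress, had 180 and 112 counts (20.4 and 11.8 CPM) in the libraries labelled KO (groups 2 and 3), against 141 and 118 counts (13.4 and 14.5 CPM) in WT. Its genotype ratios pointed opposite ways, 1.52 in group 2 (1.21 to 1.91) and 0.813 in group 3 (0.622 to 1.06), and the libraries labelled KO held both the highest and the lowest value. Bid, which death receptor signals turn on through cleavage by caspase-8, had 657 and 649 counts (74.4 and 68.2 CPM) in the libraries labelled KO, against 854 and 695 counts (81.4 and 85.2 CPM) in WT. Both libraries labelled KO were below both WT libraries, with ratios of 0.915 (0.825 to 1.01) and 0.800 (0.717 to 0.891) and a fitted log2 difference of -0.23 (SE 0.16, edgeR adjusted p = 0.659). Exons of Bid overlap those of Bcl2l13 on the other strand by 628 bp, and 16.4% of its 50-base words occur there too, so part of its count cannot be assigned; Bcl2l13 had 387 and 381 counts in the libraries labelled KO, against 294 and 402 in WT.

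None of the 3 pro-survival genes passed the test for genotype. Mcl1, a short-lived protein that holds Bim and Bak in check, had 6195 and 8190 counts (702 and 860.1 CPM) in the libraries labelled KO (groups 2 and 3), against 6651 and 5935 counts (634 and 728 CPM) in WT. It was 1.11 times as high in group 2 (1.07 to 1.15) and 1.18 times as high in group 3 (1.14 to 1.22) in the libraries labelled KO, and the fitted log2 difference was 0.19 (SE 0.13, edgeR adjusted p = 0.626). These intervals are narrow because Mcl1 was counted deeply, and they leave out any spread between mice. Bcl2 had ratios of 0.946 (0.884 to 1.01) and 1.04 (0.985 to 1.10), Bcl2l1 had 1.01 (0.954 to 1.07) and 0.938 (0.884 to 0.995), and Bax had 0.951 (0.877 to 1.03) and 1.07 (0.987 to 1.17). The SE of the fitted log2 difference was 0.15 for Bcl2, 0.14 for Bcl2l1 and 0.15 for Bax, which is the precision behind these 3 near-level values.

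**Figure D2:**
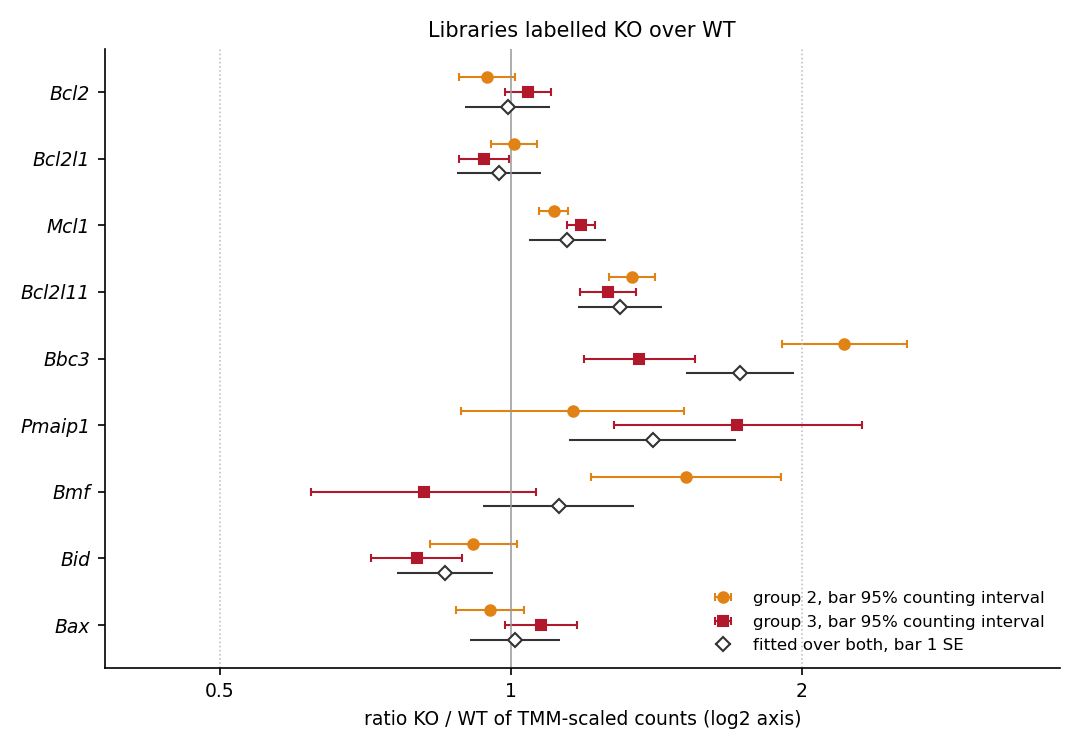
Ratio of the libraries labelled KO over WT (log2 axis) for the 9 measured genes, in group 2 and in group 3 with 95% counting intervals, and the fitted value over both with a bar of 1 SE. Bbc3 in group 2, at 2.21, is the only value past 2; Bmf lies on opposite sides of 1 in the 2 sorted groups.

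Past 2-fold with an interval that excludes 1, the group 2 pair held 1 of 9 measured members, Bbc3, higher in the library labelled KO and none lower, against 6.45% and 2.44% of all measured genes. The group 3 pair held no member past 2-fold in either direction, against 2.17% of measured genes higher and 5.6% lower. The genotype difference of Bbc3 was smaller in group 3 than in group 2 by 0.71 on the log2 scale (a difference of -0.71, counting interval -0.99 to -0.42), and that of Bmf differed by -0.90 (-1.39 to -0.41). Pmaip1 went the other way, at 0.56 (0.01 to 1.12). So did Bcl2 at 0.139 (0.015 to 0.264), Mcl1 at 0.094 (0.024 to 0.163) and Bax at 0.176 (0.008 to 0.344). On the scale of log2(CPM + 0.5), 22.1% of measured genes had a larger absolute difference than Bbc3 and 16.4% than Bmf. The share was 29.9% for Pmaip1, 76.4% for Bcl2, 84.1% for Mcl1 and 70.3% for Bax. The model with this difference leaves no residual degree of freedom, so no p-value can be given. The contrast also lines up with the number of genes detected, which was higher in the group 2 library labelled KO and the group 3 WT library, and its part was not tested.

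The second comparison follows the step from group 2 to group 3. Of the 9 measured members, 1 rose, Bcl2, and none fell (edgeR quasi-likelihood test, as above; DESeq2 made the same call), where 2.21% of all measured genes were called higher and 1.14% lower. The median log2 step was -0.03 over the members and -0.00695 over all measured genes. By edgeR, 3 of the 9 members had an unadjusted p under 0.05, against 1331 of all 12490 measured genes. The 3 were Bcl2 and Bbc3 (higher) and Bcl2l11 (lower).

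Bcl2 is the founding survival gene of the family and lies on the minus strand of chromosome 1, 106538178 to 106714274. It had 2794 and 2297 counts (293 and 282 CPM) in the group 3 libraries (labelled KO and WT), against 1559 and 1960 counts (177 and 187 CPM) in the group 2 libraries. Both group 3 libraries were above both group 2 libraries, and the 2 genotypes lay close together within each sorted group. The ratio of group 3 over group 2 was 1.66 in the libraries labelled KO (1.56 to 1.77) and 1.51 in WT (1.42 to 1.60). The fitted log2 step was 0.66 (SE 0.15, edgeR adjusted p = 0.000542, higher in 2 of 2 pairs). It kept its size (0.62 to 0.70) but lost the call when any 1 library was left out. Those fits held 1 factor and called fewer genes among all those measured, so the lost call is not particular to Bcl2. An antisense gene, D630008O14Rik, overlaps exons of Bcl2 by 558 bp and had 12 to 24 counts. Reads in that overlap cannot be assigned.

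Mcl1, the other pro-survival gene with a higher level in group 3, stood at ratios of 1.23 in the libraries labelled KO (1.19 to 1.27) and 1.15 in WT (1.11 to 1.19), and its fitted log2 step was 0.25 (SE 0.13, edgeR adjusted p = 0.526). Bcl2l1 was at 0.914 (0.863 to 0.968) and 0.983 (0.929 to 1.04). Bcl2l11 was lower in group 3 in both genotypes, with ratios of 0.742 in the libraries labelled KO (0.702 to 0.786) and 0.786 in WT (0.736 to 0.839) and a fitted log2 step of -0.39 (SE 0.15, edgeR adjusted p = 0.154). Its direction was the reverse of that of Bcl2 in both genotypes, though it did not pass the test.

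Bbc3 was 1.75 times as high in group 3 as in group 2 in WT (1.49 to 2.05) and 1.07 times as high in the libraries labelled KO (0.952 to 1.21). The fitted log2 step was 0.44 (SE 0.19, edgeR adjusted p = 0.255). The fit without the group 2 WT library also leaves genotype out, and there the step was -0.10. That fit sets both group 3 libraries against the group 2 library labelled KO alone, so it does not show that the direction turns. Within the libraries labelled KO the ratio was the 1.07 given above. Bmf was at a ratio of 0.577 in the libraries labelled KO (0.452 to 0.734) and 1.08 in WT (0.836 to 1.39). Pmaip1, Bid and Bax had intervals that included 1 in both genotypes. No member was past 2-fold from group 2 to group 3 in the libraries labelled KO, against 1.85% of measured genes higher and 5.99% lower, nor in WT, against 5.22% higher and 1.86% lower.

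**Figure D3:**
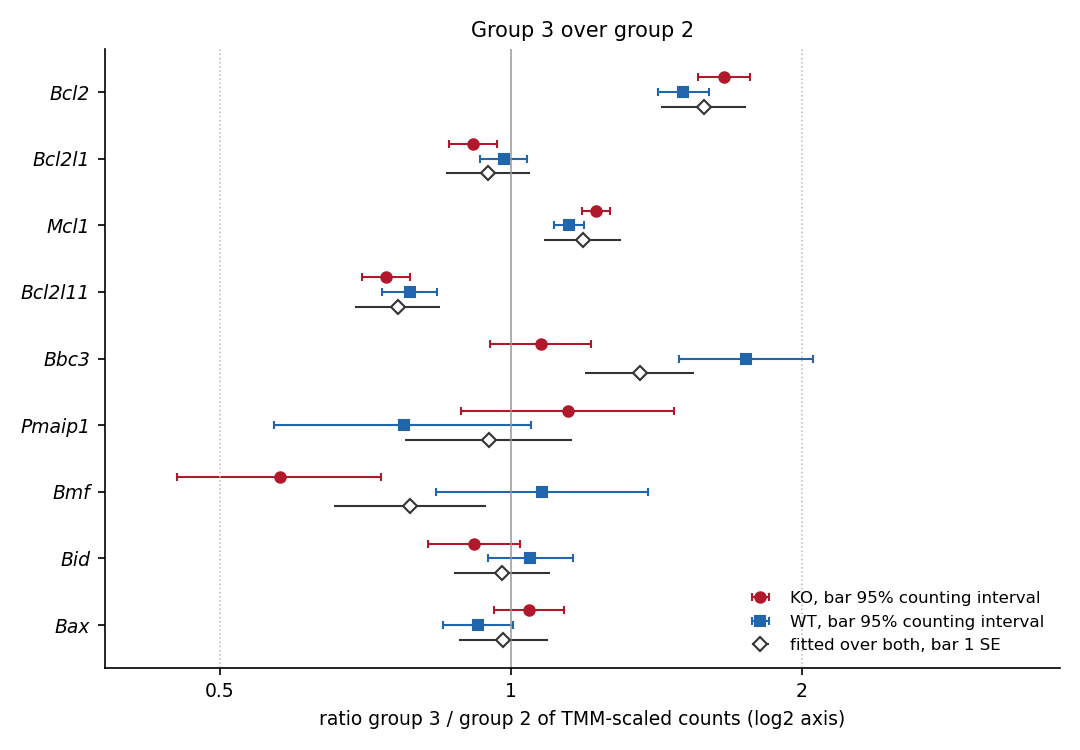
Ratio of group 3 over group 2 (log2 axis) for the 9 measured genes in the libraries labelled KO and in WT with 95% counting intervals, and the fitted value over both with a bar of 1 SE. Bcl2 lies near 1.66 and 1.51 and Bcl2l11 near 0.742 and 0.786, while Bbc3 is near 1 in the libraries labelled KO and at 1.75 in WT.

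Since the proteins act by binding each other, ratios between a survival gene and a death gene inside 1 library are a further description, which needs no scaling between libraries. Per length, Bcl2 over Bcl2l11 was 0.242 (95% counting interval 0.227 to 0.257) in the group 2 library labelled KO and 0.341 (0.321 to 0.362) in WT, and 0.541 (0.511 to 0.572) in the group 3 library labelled KO and 0.655 (0.613 to 0.699) in WT. The ratio was thus lower in the library labelled KO within each sorted group and higher in group 3 within each genotype, and no interval touched another. Mcl1 over Bcl2l11 kept the same order, at 2.22 and 2.67 in group 2 and 3.66 and 3.91 in group 3 (labelled KO, then WT), though the intervals of the 2 group 3 libraries overlapped. Bcl2l1 over Bcl2l11 broke that order, at 1.25 (1.19 to 1.32) and 1.66 (1.57 to 1.75) in group 2 and 1.54 (1.46 to 1.64) and 2.07 (1.94 to 2.22) in group 3 (labelled KO, then WT). It was lower in the library labelled KO within each sorted group, but the group 3 library labelled KO was below the group 2 WT library, with overlapping intervals.

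Against Bbc3 the order was another. Bcl2 over Bbc3 was 0.643 (0.582 to 0.712) in the group 2 library labelled KO and 1.51 (1.33 to 1.71) in WT, and 0.996 (0.911 to 1.09) and 1.30 (1.16 to 1.45) in group 3. Mcl1 over Bbc3 was 5.90 in the group 2 library labelled KO and 11.8 in WT, against 6.74 and 7.74 in group 3. The group 2 WT library was the highest in both ratios. Bcl2 over Bax was the same in the 2 genotypes within the counting intervals, 0.251 and 0.253 in group 2 and 0.400 and 0.412 in group 3 (labelled KO, then WT).

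Summed over roles, the 3 pro-survival genes reached 533 and 611 RPKM in the libraries labelled KO (groups 2 and 3), against 520 and 577 RPKM in WT. The 5 BH3-only genes reached 276 and 232 RPKM in the libraries labelled KO, against 218 and 215 RPKM in WT. The ratio of the sums was 1.93 in the group 2 library labelled KO and 2.38 in WT, and 2.63 and 2.69 in group 3. The low value was that of the group 2 library labelled KO. There Bcl2l11, Bbc3, Bmf and Pmaip1 (4.85 against 4.33 RPKM) each had a higher RPKM than in the group 2 WT library, and Bid a lower one (59.5 against 67.3 RPKM).

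**Figure D4:**
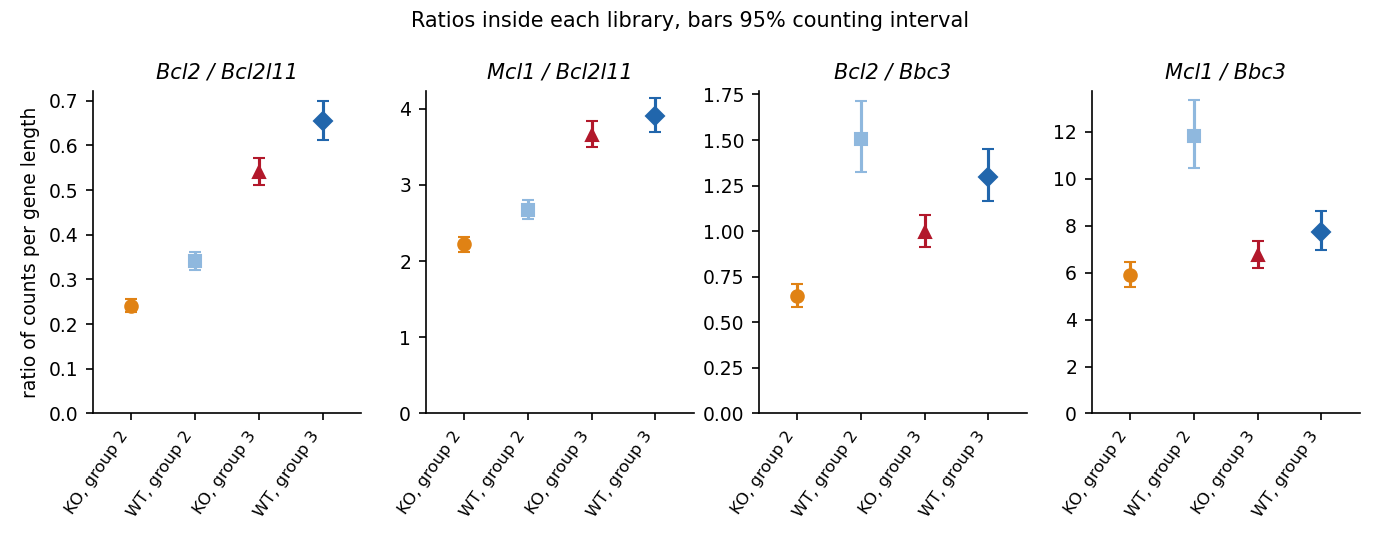
Ratios of counts per gene length inside each library for 4 pairs of a survival gene over a BH3-only gene; symbols are single libraries in the order KO then WT within group 2 and group 3, and bars are 95% counting intervals. Bcl2 over Bcl2l11 is lowest in the group 2 library labelled KO (0.242) and highest in the group 3 WT library (0.655), while Bcl2 over Bbc3 and Mcl1 over Bbc3 peak in the group 2 WT library at 1.51 and 11.8.

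Genes that act with the family were counted by list. Of 10 measured genes among 16 others of the wider BCL2 family, none passed the test in either direction or comparison; the largest fitted genotype differences were Bik, a BH3-only gene with 23 and 27 counts in the libraries labelled KO (groups 2 and 3), against 6 and 14 in WT (log2 1.40, SE 1.10, edgeR adjusted p = 0.700), and Bcl2l14 (log2 -0.98, SE 0.58, adjusted p = 0.507). Of 14 genes of the apoptosome and caspases, which act after the mitochondrion opens, none passed; Endog, a mitochondrial nuclease, was at a log2 genotype difference of 0.45 (edgeR adjusted p = 0.760). None passed among 5 inhibitors of apoptosis (Xiap -0.29 and Cflar 0.27, adjusted p = 0.732 and 0.532), nor among 8 death receptor genes (Ripk1 0.42 and Fas -0.19, adjusted p = 0.362 and 0.709). By edgeR, an unadjusted p under 0.05 for genotype was reached by 0 of the 10 wider family genes and 2 of the 14 apoptosome and caspase genes (Dffa among them). It was reached by 0 of the 5 inhibitors and 1 of the 8 death receptor genes (Ripk1), against 1649 of all 12490 measured genes. DESeq2 called none of the genes on these lists in either comparison.

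Among 15 measured transcription factors with known targets in the family, 1 rose in the libraries labelled KO. Nr4a1 encodes Nur77, an early gene of T cell receptor signalling that also takes part in negative selection. It had 671 and 798 CPM in the libraries labelled KO (groups 2 and 3), against 366 and 390.5 CPM in WT, with no overlap (log2 0.95, SE 0.14, edgeR adjusted p = 1.03e-09). In the step from group 2 to group 3, Foxo1, a forkhead factor, rose (log2 0.60, SE 0.16, edgeR adjusted p = 0.00686) and Nfkb1 fell (log2 -0.64, SE 0.18, adjusted p = 0.0197). DESeq2 called Nr4a1 for genotype and neither Foxo1 nor Nfkb1 for the step. For genotype, Foxo1 was at 0.37 (SE 0.16, adjusted p = 0.215).

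The tumour suppressor p53 is known to induce the members Bbc3, Pmaip1 and Bax, of which Bbc3 alone passed the test for genotype. None of 9 measured p53 targets outside the family passed. Perp was at a log2 difference of 0.72 (SE 0.95, edgeR adjusted p = 0.874). Cdkn1a, the cell cycle inhibitor p21, had 96 and 74 counts in the libraries labelled KO (groups 2 and 3), against 51 and 64 in WT (log2 0.57, SE 0.37, edgeR adjusted p = 0.585). Its log2(CPM + 0.5) difference was 1.09 in group 2 and -0.01 in group 3, and the group 2 WT library was its lowest value, as it was for Bbc3. Most of the list did not follow this: in group 2, 3 of the 9 targets were higher in the library labelled KO (Cdkn1a, Aen and Perp) and 6 lower, while in group 3, 7 were higher and 2 lower (Cdkn1a and Aen). Of 13 genes for the turnover of family proteins, which include the cullins, RING proteins and NEDD8 conjugating enzymes that work with Uba3, none passed for genotype (Huwe1, an Mcl1 ubiquitin ligase, -0.43, adjusted p = 0.174; Fbxw11 0.21, adjusted p = 0.718), and Huwe1 fell in the step (log2 -0.55, SE 0.17, edgeR adjusted p = 0.0482). None of 7 mitochondrial and channel partners passed (Bag3 1.61, SE 0.96, adjusted p = 0.521; Bag1 0.27, adjusted p = 0.409). For genotype, 0 of the 9 p53 targets, 1 of the 13 turnover genes (Huwe1) and 0 of the 7 partners had an unadjusted p under 0.05 by edgeR. The same cut was reached by 1649 of all 12490 measured genes. DESeq2 called none of the genes on these lists in either comparison.

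Among the genes of immature thymocytes, Ptcra was at a log2 genotype difference of -1.24 (SE 0.19, edgeR adjusted p = 8.03e-09), Rag2 at -0.77, Rag1 at -0.62 and Arpp21 at -0.47 (adjusted p = 6.81e-05, 0.00143 and 0.0163), and the list summed to 2766 and 1980.3 CPM in the libraries labelled KO (groups 2 and 3), against 3278 and 2701 CPM in WT, with none at 0. The mature list summed to 1119 and 1905 CPM in the libraries labelled KO, against 1051 and 1717 CPM in WT. In the step, the mature sum was higher in group 3 beside Bcl2 in each genotype, led by Ccr7 (log2 1.75, SE 0.14, edgeR adjusted p = 1.58e-30). The part of this maturation in the values of the family was not tested. Of the 5 B cell genes, 5 erythroid genes, 1 epithelial and 3 stromal genes measured, none passed in either comparison by edgeR or by DESeq2. By edgeR, 3 of them had an unadjusted p under 0.05 for genotype (Cd79a, Hba-a1 and Hba-a2), against 1649 of all 12490 measured genes.

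The neutrophil genes Ngp (2 and 204 counts in the libraries labelled KO in groups 2 and 3, against 2 and 6 in WT) and Ltf (1 and 72, against 0 and 1) were called higher by edgeR for genotype and for the step, with high counts in the group 3 library labelled KO and few in the other 3. DESeq2 called neither for genotype and Ngp alone for the step. The part of these genes' source in the values of the family was not tested.

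Finally, the genes nearest to a member in pattern were taken by the Euclidean distance between centred log2(CPM + 0.5) over the 4 libraries, among 8568 genes with a mean of at least 10 CPM, for the 3 measured members that varied most. Nearest to Bbc3 were Phf11b (distance 0.104), Spryd4 (0.131) and Lgals3bp (0.135). Phf11b had 28.4 and 32.4 CPM in the libraries labelled KO (groups 2 and 3), against 12.6 and 24.2 CPM in WT, the same low group 2 WT library as Bbc3. Nearest to Bmf were Tle3 (0.0581), Nav2 (0.0964) and H2-Eb1 (0.105), each with its highest value in the group 2 library labelled KO. Nearest to Bcl2l11 were Nrip1 (0.0569), Fam98c (0.0660) and Slc25a29 (0.0760); Nrip1 had 527 and 392 CPM in the libraries labelled KO, against 408 and 325 CPM in WT. With 4 libraries, a close pattern is a description of these values.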

How the data were processed

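Deposited by the authors were integer counts for each Ensembl gene in 4 libraries and, per library, an RPKM file. Per the submitters' processing notes, the aligner was TopHat2 2.0.12 and the build mm10; which counting program, annotation and strand setting were used is not given in the sources used here. The deposited RPKM and counts together implied a whole gene length for 100% of nonzero values (tolerance 0.01 bp). Of 35275 IDs, 34490 matched GENCODE M21.

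TMM factors were computed over 12490 measured genes (edgeR 4.0.16, R 4.3.3). edgeR's quasi-likelihood F test gave the genotype and sorted group effects from 1 additive model with 1 residual degree of freedom. The dispersion was 0.0288 (coefficient of variation 0.170), with each gene's spread shrunk fully to the trend. With 1 library per group, the residual is how far these libraries depart from additive effects of genotype and sorted group, pooled over genes. The p-values rest on that residual only. A gene's own disagreement between pairs does not widen its SE, and no spread between mice is measured. Ratios of 1 pair carry exact conditional binomial 95% intervals (Clopper-Pearson, SciPy 1.17.1), for counting error only. Log2 folds of pairs used a pseudocount of 0.5 CPM. Alternatives were DESeq2 1.42.0, limma-voom 3.58.1, robust shrinkage, other scalings, filters and pseudocounts, a model with 1 factor, and each library left out.

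Members and lists were chosen with earlier results of these data known. The text names the 10 members, Uba3, from each list the genes called for genotype or else the 2 with the largest genotype difference, and the 3 nearest genes of the 3 most variable measured members; genes called for sorted group in short counts, and neighbours of Bbc3, were named after their values were seen. Some genes that this rule would name are not reported here.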

Additional observations from a re-analysis of the deposited data

How the results depend on the processing

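No member fell in any fit. The count of members higher for genotype, 1 (Bbc3), was 0 with DESeq2, 0 with sorted group left out of the model and 0 to 1 with a library left out. The count higher in group 3, 1 (Bcl2), was 0 with genotype left out and 0 with any library left out. It was 1 under limma-voom, robust shrinkage and every other scaling and filter, for both effects. Signs turned for the effects below, none of which was called for that member, and the cause was not tested. With a library left out, the fit held 1 factor on unbalanced groups. Genotype and the step between sorted groups cannot be told apart in those values. On the log2 scale, the genotype effect of Bcl2 was 0.00595 with sorted group left out and -0.41 to 0.33 with a library left out, that of Bcl2l1 -0.10 to 0.0244, and that of Bmf -0.25 to 0.55. For Bax it was -0.0318 with plain library totals and -0.0408 to 0.0727 with a library left out. The step with a library left out was -0.10 to 1.05 for Bbc3, -0.48 to 0.30 for Pmaip1, -0.19 to 0.13 for Bid and -0.0778 to 0.0259 for Bax. Fits with a library left out hold 1 factor only, and the group with 1 library left is assumed to vary like the other.

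Over all measured genes, the 368 higher and 234 lower for genotype became 125 and 54 with DESeq2, 195 and 104 with filterByExpr, 244 and 125 with no filter, 17 and 6 with sorted group left out, and 25 to 139 and 11 to 70 with a library left out. The 276 higher and 143 lower in group 3 became 100 and 39 with DESeq2, 169 and 57 with filterByExpr, and 9 and 5 with genotype left out. With no filter 83 were lower, and a library left out gave 2 to 36 higher and 5 to 10 lower. With a pseudocount of 2 CPM, past 2-fold counts for KO over WT were 314 and 112 in group 2 (against 806 and 305) and 124 and 180 in group 3 (against 271 and 699), with the members' counts unchanged. For group 3 over group 2 they were 121 and 220 in the libraries labelled KO (against 231 and 748) and 203 and 86 in WT (against 652 and 232), again with no member. Depth limits Bak1, at 3 to 11 counts, and Pmaip1 and Bmf, at 71 to 180.

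No paired analysis was possible because each group holds 1 library and the labels give no replicate numbers.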
